A study of Mus musculus with 24 samples.

Results

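The 3 p38 kinase genes *Mapk11*, *Mapk12* and *Mapk14*, the 4 phosphatase genes *Dusp1*, *Dusp4*, *Dusp5* and *Dusp6*, and the Sprouty genes *Spry2* and *Spry4* were followed in the hippocampus of 24 adult mice. These 9 genes were taken by symbol from the 36605 genes of the count table, and all 9 passed the filter on low counts that kept 19742 genes. The set was chosen by the fall of *Mapk11* in mice that lack *Egr1* in the neural lineage, so the difference of those mice in *Mapk11* is given as a description without a test, and the question for the other 8 genes was whether they fell with it.

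The mice belonged to 4 genotypes with 3 females and 3 males each. Egr1wtNesCre- mice had intact *Egr1* alleles and no Cre (wild type), Egr1wtNesCre+ mice carried the Nestin-Cre transgene alone (Cre control), Egr1fNesCre- mice carried the floxed *Egr1* allele alone (floxed control), and Egr1fNesCre+ mice carried both (Egr1cKO). Nestin-Cre is active in neural precursors, so neurons, astrocytes and oligodendrocytes descend from cells that expressed it, while microglia and vessels do not. The floxed strain came from C57BL/6N, and the labels give no age. The sample codes of Egr1wt and Egr1f mice fall in separate ranges, here called series, and the labels do not say what the codes stand for. A difference between Egr1f and Egr1wt mice therefore cannot be told apart from one between these series. The comparison of Egr1cKO mice with floxed controls stays within 1 series, but the codes nearly part these groups too. All floxed controls except male replicate 1 have codes above those of every Egr1cKO mouse. A difference between these groups can therefore hardly be told apart from one in code order.

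The mitogen-activated protein kinase (MAPK) pathways carry signals from receptors and stress to the nucleus through chains of kinases. The p38 kinases answer to stress and cytokines, and in neurons also to synaptic signals. *Mapk11* encodes p38β, *Mapk12* p38γ and *Mapk14* p38α. ERK, the kinase of the growth factor branch, induces its own brakes. The phosphatases DUSP1 and DUSP4 act in the nucleus on several MAPKs, DUSP5 is a nuclear and DUSP6 a cytoplasmic phosphatase selective for ERK, and the Sprouty proteins act on growth factor signaling upstream of ERK. Levels of these feedback genes are often read as a trace of ERK activity. EGR1 is a zinc finger transcription factor that is itself induced by ERK.

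Library totals ran from 18025168 to 34955004 counts with a median of 22743950.5. *Egr1* checked the labels, with 63.8, 111 and 149 CPM (counts scaled to a common library size) as the lowest, median and highest level in wild-type mice, 47.6, 85.2 and 125 CPM in Cre controls, 67.0, 83.3 and 147 CPM in floxed controls, and 4.86, 8.18 and 10.2 CPM in Egr1cKO mice (log2FC −3.56 against floxed controls, standard error 0.24, adjusted *p* = 2.47e-10 from edgeR). Every Egr1cKO mouse lay below every other mouse. The cell type given in the labels, endocrine, was not borne out. The 5 pituitary hormone genes in the table summed to between 0.899 and 3.84 CPM in every mouse, with *Gh*, *Prl* and *Cga* at 0 in 10, 15 and 23 of the 24 mice, whereas 6 neuronal markers summed to between 4834 and 5634 CPM.

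The stretches upstream of start sites of 3 genes are shown because the results turn on *Mapk11*, on its neighbor *Mapk12* and on the activity-linked gene *Dusp1*. RefSeq promoter windows, 250 bases before to 50 after a start site, were found for 7 of the 9 genes (*Mapk14* has 2) and not for *Dusp4* and *Spry4*. The windows were searched on both strands for the EGR1 motif in the forms GCGTGGGCG and GCGGGGGCG, for the cAMP response element (CRE) TGACGTCA, which is the site of CREB family factors, and for its half-site TGACG, which the full site contains. The stretches are 5′ to 3′ on the strand of the gene in GRCm38.p6, all on the minus strand, stop before the first exon annotated at that start, and have the matches in capitals. The *Dusp1* stretch lies before the start of its usual transcript but within the annotated gene span, which 1 long transcript extends. The *Mapk11* stretch is chr15:89149629-89149856, the *Mapk12* stretch chr15:89140704-89140953 and the *Dusp1* stretch chr17:26508520-26508722.
Mapk11: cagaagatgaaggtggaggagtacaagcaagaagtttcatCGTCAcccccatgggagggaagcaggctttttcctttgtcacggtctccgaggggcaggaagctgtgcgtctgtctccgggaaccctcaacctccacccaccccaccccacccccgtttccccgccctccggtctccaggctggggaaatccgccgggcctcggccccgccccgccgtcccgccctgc
Mapk12: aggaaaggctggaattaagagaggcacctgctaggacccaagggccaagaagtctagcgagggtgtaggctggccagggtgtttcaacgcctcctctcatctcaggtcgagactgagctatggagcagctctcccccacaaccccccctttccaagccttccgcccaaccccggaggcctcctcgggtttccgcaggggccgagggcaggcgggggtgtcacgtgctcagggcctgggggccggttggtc
Dusp1: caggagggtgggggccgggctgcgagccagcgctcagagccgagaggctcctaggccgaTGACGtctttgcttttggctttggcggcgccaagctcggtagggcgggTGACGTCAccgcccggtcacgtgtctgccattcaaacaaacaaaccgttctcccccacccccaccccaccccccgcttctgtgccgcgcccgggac
*Dusp1* held a full CRE starting at −143 from its RefSeq start site and a second half-site at −191. *Dusp5* held a half-site at −55 and *Mapk11* one at −210, both on the other strand. The printed *Dusp1* and *Mapk11* stretches end before the RefSeq start, where an annotated exon begins, so these positions do not count from their ends. No member window held either EGR1 form. One of these forms occurs in 3.47% of all 32851 windows, a full CRE occurs in 1.79% and the half-site in 20.8% of them. A match is not a bound site, and the absence of these letters covers this window only.

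Per kilobase of exon, the scale on which genes can be compared, the median over all mice was highest for *Mapk14* at 25.4 CPM per kb. *Dusp6* followed at 19.4, *Spry2* at 15.8, *Dusp5* at 10.9 and *Dusp4* at 9.99 CPM per kb. *Mapk11* stood at 8.08, *Dusp1* at 5.41, *Spry4* at 3.12 and *Mapk12* at 1.38 CPM per kb. By this measure p38α had the most mRNA of the 3 kinases, and *Mapk12* rested on 59 to 171 counts per mouse against 366 to 799 for *Mapk11*.

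*Mapk11* (ENSMUSG00000053137, chromosome 15, 89142486 to 89149628, minus strand, GRCm38) was lower in Egr1cKO mice. Female Egr1cKO mice were at 18.3, 18.7 and 15.5 CPM and males at 20.2, 20.2 and 22.4 CPM. Female floxed controls were at 24.0, 33.8 and 32.4 CPM and males at 20.8, 28.9 and 32.5 CPM. Among females every Egr1cKO mouse was below every floxed control, while among males the highest Egr1cKO mouse was above the lowest control. The mean was 19.2 ± 2.31 CPM in Egr1cKO mice and 28.7 ± 5.26 CPM in floxed controls (SD, n = 6 each), a log2FC of −0.57 or 0.671 of the control level.

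The size of this fall depended on the control group. Cre controls were at 38.3, 22.1 and 31.6 CPM in females and 28.1, 21.3 and 29.8 CPM in males, and wild-type mice at 22.9, 23.7 and 21.9 CPM in females and 25.0, 20.8 and 23.8 CPM in males. Wild-type mice were tight, with a median of 23.3 CPM and an SD of 1.5 CPM, and their mean lay between that of Egr1cKO mice and those of the other controls. The log2FC of Egr1cKO mice was −0.57 against Cre controls, −0.26 against wild-type mice and −0.47 against the mean of the 3 control genotypes. Leaving out each mouse in turn gave −0.66 to −0.51 against floxed controls and −0.63 to −0.46 against Cre controls. The Cre control at 38.3 CPM was also the mouse with the highest *Fos* (51.8 CPM) and choroid plexus markers (2051 CPM summed), and without it the log2FC against Cre controls was −0.46. Choroid plexus markers also stood high in 2 male floxed controls (812.9 and 1043 CPM), in 1 male Egr1cKO mouse (1140 CPM) and in 1 male Cre control (326.5 CPM), against 31.7 to 81.2 CPM in the other 19 mice. Their part in the *Mapk11* level was not tested.

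For each single allele the *Mapk11* estimate lay above wild type by a similar amount. This is a description without a test, because the levels of all genotypes entered the choice of *Mapk11*. Cre controls were above wild-type mice by a log2FC of 0.31 and floxed controls by 0.32. These values come from edgeR's fit over all 24 mice. The combination of both alleles departed from the sum of the single differences by a log2 of −0.89, again a description.

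**Figure D1:**
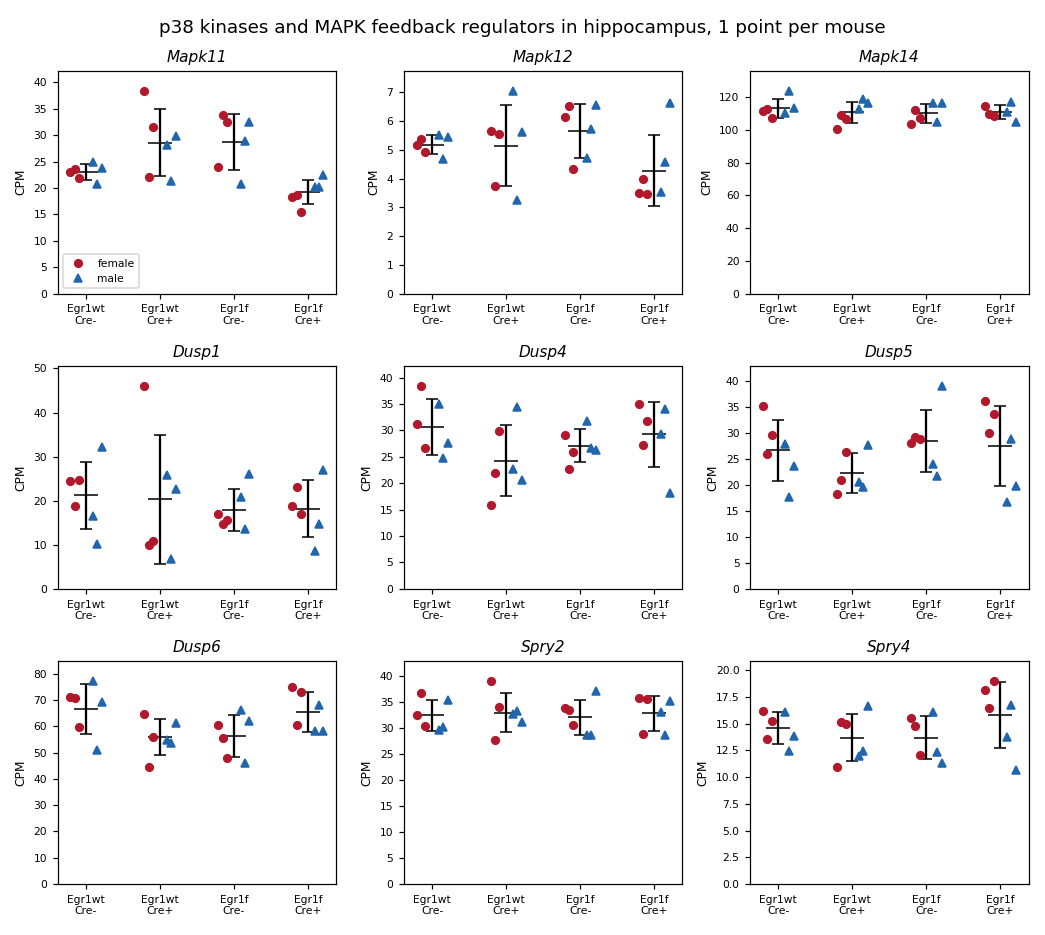
Level of each member in CPM (y axis, from 0) in the 4 genotypes, with 1 point per mouse, females as circles and males as triangles, and the mean ± SD of 6 mice in black. *Mapk11* is lowest in Egr1cKO mice (15.5 to 22.4 CPM), *Mapk14* is flat between 100.5 and 124 CPM, and *Dusp1* spreads from 6.69 to 46.0 CPM within and across genotypes.

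*Mapk12* (ENSMUSG00000022610, chromosome 15, 89130584 to 89140703, minus strand), which lies 1783 bases downstream of *Mapk11* and has few counts, had estimates of the same sign that did not pass the test. Egr1cKO females were at 3.50, 3.97 and 3.48 CPM and males at 3.53, 4.57 and 6.64 CPM. Floxed control females were at 6.14, 6.53 and 4.33 CPM and males at 4.71, 5.74 and 6.56 CPM. The females did not overlap, and the males did. The log2FC was −0.41 against floxed controls (standard error 0.17, 95% interval −0.77 to −0.05, adjusted *p* = 0.278), −0.27 against Cre controls (adjusted *p* = 0.465) and −0.32 against the mean of the other genotypes (adjusted *p* = 0.304). The interval against floxed controls includes both −0.57, the value of *Mapk11*, and differences close to 0. The male at 6.64 CPM stood apart, and without it the log2FC was −0.56 against floxed controls (adjusted *p* = 0.0853).

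*Mapk14* (ENSMUSG00000053436, chromosome 17, 28691329 to 28748406, plus strand), the abundant p38α, did not share the fall. Its means were 113, 111, 110 and 111 CPM in wild-type mice, Cre controls, floxed controls and Egr1cKO mice, with SDs between 4.30 and 6.68 CPM. The log2FC against floxed controls was 0.01 (95% interval −0.09 to 0.11, adjusted *p* = 0.941), an interval that does not reach −0.57. Against Cre controls it was 0.01 (−0.10 to 0.11). *Mapk14* also had the smallest spread between mice of a group among the 9 genes, an SD of 0.0634 on the log2 scale.

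None of the 8 other members was called between Egr1cKO mice and floxed controls, in a comparison in which edgeR called 0.0304% of all genes at an adjusted *p* of at most 0.05 and a fold change of at least 1.2. *Mapk12* and *Dusp6* had an unadjusted *p* under 0.05, as had 15.4% of all genes. Against Cre controls 0 of 8 were called, with 0.00507% of all genes called, and *Dusp6* alone had an unadjusted *p* under 0.05, against 15.3% of all genes. Against the mean of the other genotypes 0 of 8 were called, with 0.0304% of all genes called, and *Mapk12* alone was under 0.05 before adjustment, against 14.9%. Against wild-type mice, a comparison added after the data were seen, 0 of 8 were called and 0.0253% of all genes were. DESeq2 called 0 of the 8 against floxed controls, against Cre controls and against the mean of the others. These comparisons share the Egr1cKO mice, so their values are not independent of each other.

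**Figure D2:**
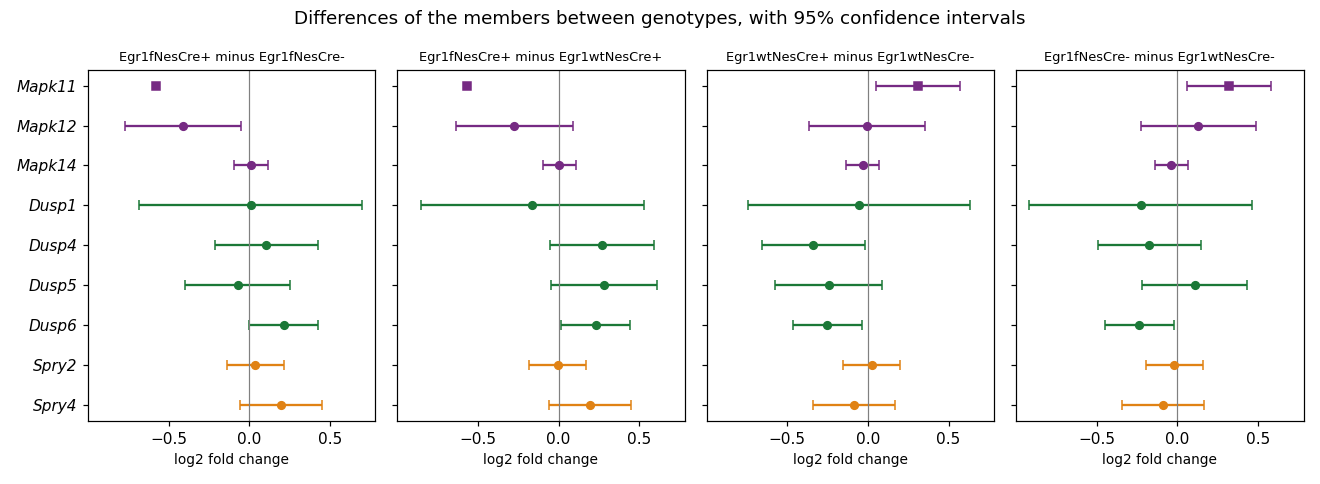
log2 fold change of each member (x axis) in 4 comparisons named above the panels, with 95% confidence intervals from edgeR as whiskers, p38 kinases in purple, phosphatases in green and Sprouty genes in orange. *Mapk11*, the square, has no whisker where Egr1cKO mice are compared because its fall there chose the set. It is the lowest point in both Egr1cKO panels (−0.57 in each) and the highest in both panels without Egr1cKO mice (0.31 and 0.32). Its whiskers in the panels without Egr1cKO mice are not read as a test, because the levels of all genotypes entered its choice.

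The cytoplasmic ERK phosphatase gene *Dusp6* (ENSMUSG00000019960, chromosome 10, 99263231 to 99267489, plus strand) had estimates of the opposite sign to *Mapk11* that did not pass the test. Egr1cKO females were at 75.0, 60.7 and 73.0 CPM and males at 58.1, 68.0 and 58.2 CPM. Floxed control females were at 60.5, 55.5 and 47.9 CPM and males at 66.2, 46.2 and 62.0 CPM. Females were separated by the narrow step from 60.5 to 60.7 CPM, and males overlapped. The log2FC was 0.21 (95% interval 0.00 to 0.43, adjusted *p* = 0.322) against floxed controls and 0.23 (0.02 to 0.44, adjusted *p* = 0.296) against Cre controls. Wild-type mice, at 66.6 ± 9.43 CPM, were level with Egr1cKO mice at 65.5 ± 7.52 CPM (log2FC −0.02).

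For each single allele the *Dusp6* estimate lay below wild type. Cre controls were at 55.8 ± 6.88 CPM and floxed controls at 56.4 ± 8.0 CPM, log2FCs of −0.25 (adjusted *p* = 0.78) and −0.24 (adjusted *p* = 0.712) against wild-type mice. The departure of the combined genotype from the sum of the single differences was 0.47 (standard error 0.15, 95% interval 0.16 to 0.77, adjusted *p* = 0.159). *Dusp4* (ENSMUSG00000031530, chromosome 8, 34807297 to 34819894, plus strand) gave 0.44 (−0.01 to 0.90, adjusted *p* = 0.28) and *Spry4* 0.28 (−0.08 to 0.64, adjusted *p* = 0.39). For *Mapk12* this term was −0.40 (−0.91 to 0.10, adjusted *p* = 0.388), and for *Mapk14*, *Dusp1*, *Dusp5* and *Spry2* it lay between 0.01 and 0.17. None of the 8 was called for this term, for which edgeR called 0.00507% of all genes, and 18.4% of all genes had an unadjusted *p* under 0.05, *Dusp6* being the one such member. DESeq2 called 335 genes for this term among the 3250 for which it gave an adjusted *p*, which left out most members.

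*Dusp1* (ENSMUSG00000024190, chromosome 17, 26505590 to 26562128, minus strand), an immediate early gene, varied most between mice of a group, with an SD of 0.70 on the log2 scale against a median of 0.204 over all tested genes. Egr1cKO mice were at 8.48, 17.9 and 27.0 CPM as the lowest, median and highest level and floxed controls at 13.5, 16.2 and 26.0 CPM. The ranges lay almost on each other, and the log2FC was 0.01 with an interval from −0.68 to 0.70 (adjusted *p* = 0.993), an interval that includes the −0.57 of *Mapk11* and its opposite. Against Cre controls it was −0.16 (adjusted *p* = 0.848) and 0.29 without the Cre control at 46.0 CPM. *Dusp1* shares 11 exonic bases with the opposite-strand gene *Ergic1*.

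*Dusp4* was at 29.2 ± 6.16 CPM in Egr1cKO mice and 27.1 ± 3.09 CPM in floxed controls, a log2FC of 0.11 (−0.21 to 0.43, adjusted *p* = 0.774). The nuclear ERK phosphatase gene *Dusp5* (ENSMUSG00000034765, chromosome 19, 53529109 to 53542431, plus strand) was at 27.5 ± 7.76 and 28.5 ± 5.95 CPM, a log2FC of −0.07 (−0.40 to 0.25, adjusted *p* = 0.859). The libraries were not stranded and 22.12% of the exonic bases of *Dusp5* are shared with an antisense gene, so its counts may hold reads of that gene. Neither interval reaches −0.57. That value of *Mapk11* chose the set, so setting intervals against it, here and for the other members, is a description and not a test.

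*Spry2* (ENSMUSG00000022114, chromosome 14, 105891947 to 105896819, minus strand) was level, at 32.4, 32.9, 32.0 and 32.8 CPM in wild-type mice, Cre controls, floxed controls and Egr1cKO mice, and its log2FC of 0.04 against floxed controls had an interval from −0.14 to 0.21 (adjusted *p* = 0.867). *Spry4* (ENSMUSG00000024427, chromosome 18, 38586247 to 38601415, minus strand) was at 15.8 ± 3.09 CPM in Egr1cKO mice and 13.7 ± 2.02 CPM in floxed controls, a log2FC of 0.20 (−0.05 to 0.45, adjusted *p* = 0.437). Its 3 Egr1cKO females, at 18.2, 16.5 and 18.9 CPM, were above the floxed control females at 15.5, 14.8 and 12.1 CPM, and its males overlapped.

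Without the Egr1cKO mice, the single alleles gave no calls among the 8 members other than *Mapk11*. Between Cre controls and wild-type mice edgeR called 0 of these 8 members and 0% of all genes. *Dusp4* (log2FC −0.34, adjusted *p* = 0.78) and *Dusp6* had an unadjusted *p* under 0.05, as had 5.92% of all genes. DESeq2 called 8 genes, none of them a member. Between floxed controls and wild-type mice edgeR called 0 of the 8 and 0% of all genes. *Dusp6* was under 0.05 before adjustment, as were 6.7% of all genes, and DESeq2 called 5 genes with no member among them. *Mapk11* is not counted in these comparisons because the levels of all genotypes entered its choice.

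Over all genotypes together, with genotype in the model, no member differed between females and males after adjustment. Within a single genotype the sexes were not tested against each other. *Dusp5* was higher in females, at 28.5 against 23.9 CPM on average over 12 mice each (log2FC 0.25, adjusted *p* = 0.834 from edgeR), and was the one member of 9 with an unadjusted *p* under 0.05, against 5.79% of all genes, while 0.0658% of all genes were called and DESeq2 called 16 genes, none of them a member. In floxed mice the estimate of the Cre difference was larger in females for both low p38 genes. The *Mapk11* log2FC of Egr1cKO mice against floxed controls was −0.78 in females and −0.38 in males, and that of *Mapk12* was −0.64 and −0.20. For *Dusp5* it was 0.22 in females and −0.38 in males, and for *Spry4* 0.34 and 0.05. The difference between the sexes was tested for the 8 other members, and edgeR called 0 of them and 0% of all genes, with 0 of the 8 and 4.48% of all genes under 0.05 before adjustment, while DESeq2 called 3 genes and no member. The nearest to a difference was *Dusp5* at 0.59 (−0.03 to 1.21, adjusted *p* = 1), which was 0.29 without male floxed control 3. For *Mapk12* the difference between the sexes was −0.44 (−1.18 to 0.29), and it was −0.15 without male Egr1cKO mouse 3.

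Among females *Mapk12* lay wholly below the floxed controls, where 10.3% of all genes did, and *Dusp5*, *Dusp6* and *Spry4* wholly above, where 10.8% did. *Mapk11* lay below too, but it is not counted because its fall chose the set. Among males no member was separated in either direction, where 4.93% of all genes lay wholly below and 4% wholly above. In each case 3 mice were set against 3, so these are counts of separated ranges and not calls.

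The genes around *Mapk11* were read because *Mapk12* is its neighbor. Of 9 annotated genes within 50 kb, counting *Mapk11*, 7 were in the count table. *Hdac10*, a polyamine deacetylase gene downstream of *Mapk12*, was at 8.09, 11.7 and 18.1 CPM in Egr1cKO mice as the lowest, median and highest level and at 13.5, 17.2 and 20.3 CPM in floxed controls. The log2FC was −0.47 (standard error 0.13, adjusted *p* = 0.22), and −0.34 against Cre controls (adjusted *p* = 0.24). *Dennd6b*, 32585 bases upstream of *Mapk11*, was at 46.8, 54.5 and 96.2 CPM against 54.9, 77.2 and 85.7 CPM (log2FC −0.30, adjusted *p* = 0.267). Between them and further out, *Plxnb2* (log2FC −0.03), *Tubgcp6* (0.07) and *Selenoo* (−0.07) were level, with adjusted *p* of 0.867, 0.642 and 0.788. Next to *Mapk11*, which chose the set, *Mapk12* and *Hdac10* had estimates of −0.41 and −0.47. A level gene lay on either side of this run, and *Dennd6b* stood low beyond *Plxnb2*. None of the neighbors was called against floxed controls, where 0.0304% of all genes were. *Mapk12*, *Hdac10* and *Dennd6b* had an unadjusted *p* under 0.05 in that comparison, as had 15.4% of all genes.

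**Figure D3:**
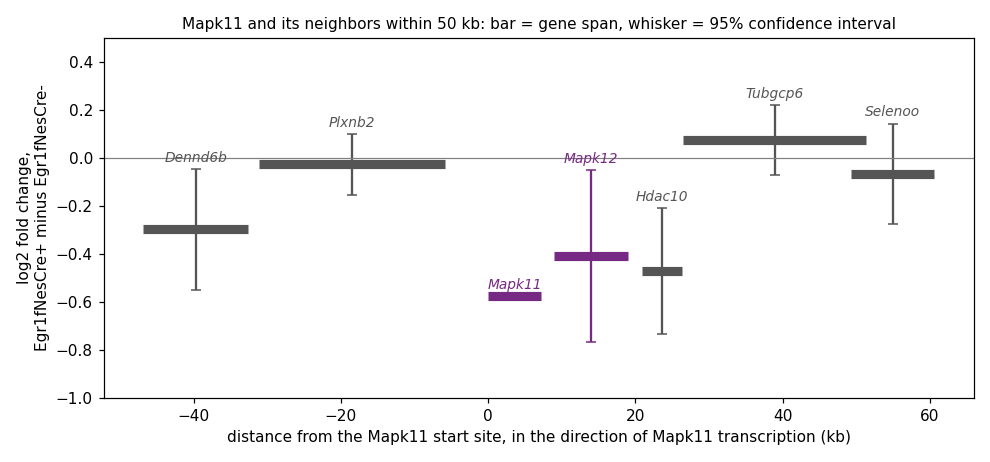
log2 fold change of Egr1cKO mice against floxed controls (y axis) for *Mapk11*, *Mapk12* and their 5 measured neighbors, placed by distance from the *Mapk11* start site in kb (x axis), with 95% confidence intervals from edgeR as whiskers, none for *Mapk11*. The horizontal bars span each gene. *Mapk11*, *Mapk12* and *Hdac10* are adjacent and lie between −0.57 and −0.41, *Dennd6b* is at −0.30, and *Plxnb2*, *Tubgcp6* and *Selenoo* lie between −0.07 and 0.07.

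The rest of the MAPK network was read from lists. Of 21 tested genes of the p38 cascade (kinases above p38, its target kinases and transcription factors), 14 were above and 7 below 0 in Egr1cKO mice against floxed controls, with a median log2FC of 0.04 where the median of all genes was −0.01. None was called, and 3 of those above 0 and 0 of those below had an unadjusted *p* under 0.05. The smallest *p* belonged to *Rps6ka5*, which encodes the nuclear kinase MSK1 downstream of p38 and ERK (log2FC 0.29, adjusted *p* = 0.235), to *Map2k6*, which encodes a kinase that activates p38 (0.33, adjusted *p* = 0.297), and to *Atf2*, a transcription factor target (0.15, adjusted *p* = 0.311). *Mapk13*, which encodes the fourth p38 kinase, p38δ, was below the filter.

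Of 23 ERK cascade genes, 18 were above and 5 below 0, with a median of 0.08, and none was called, while 4 above and 1 below 0 had an unadjusted *p* under 0.05, where 7.38% of all genes were above and 8.05% below 0 at that level. Over all genes the share was 15.4%, which is the background for each of these lists. *Nf1* and *Sos1*, which encode a brake and an activator of Ras, had log2FCs of 0.20 and 0.23 (adjusted *p* = 0.254 for each), and the scaffold gene *Ksr2* 0.28 (adjusted *p* = 0.258). Of 12 other ERK feedback and output genes, 7 were above and 5 below 0 with a median of 0.03, and 1 had an unadjusted *p* under 0.05. *Spred1*, a Sprouty-related inhibitor gene, had a log2FC of 0.24 (adjusted *p* = 0.245), *Spred2* 0.18 (adjusted *p* = 0.339) and *Spry3* 0.17 (adjusted *p* = 0.6). Of 8 other phosphatase genes, 3 were above and 5 below 0 with a median of −0.02 and 2 had an unadjusted *p* under 0.05, with *Dusp14* at −0.23 (adjusted *p* = 0.297), *Dusp8* at 0.14 (adjusted *p* = 0.311) and *Dusp9* at 0.53 with a mean below 1 CPM (adjusted *p* = 0.69). Of 12 genes of JNK and other MAPKs, 7 were above and 5 below 0 with a median of 0.05 and 3 had an unadjusted *p* under 0.05, and *Mapk8* (JNK1), *Mapk7* (ERK5) and the JNK activator *Map2k7* had log2FCs of 0.18, −0.20 and −0.14 (adjusted *p* = 0.283, 0.291 and 0.297). None of the genes on these 5 lists was called by edgeR against Cre controls or for the combined term. The lists were not run through DESeq2.

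Within genotype and sex, the members were set against the mean level of 8 genes that neuronal activity induces (*Fos*, *Fosb*, *Junb*, *Arc*, *Npas4*, *Nr4a1*, *Ier2* and *Btg2*), after the 8 group means were subtracted from log2(CPM + 1), with two-sided permutation within groups and adjustment over the 9 members. *Dusp1* followed them closely, with Pearson's r = 0.953 (permutation *p* = 0.00032, adjusted *p* = 0.00288) and Spearman's rho = 0.833 (adjusted *p* = 0.0135) over 24 mice. Without the 2 mice farthest from the median, both Cre controls, r was 0.893, and it was 0.974 in the 12 Egr1wt and 0.897 in the 12 Egr1f mice. In the 12 mice of each series its adjusted *p* was 0.0555 and 0.259. *Dusp1* is also the member whose printed stretch holds the full CRE, and whether the site has a part in the relation was not tested.

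*Mapk12* had r = 0.719 (permutation *p* = 0.00502, adjusted *p* = 0.0226), rho = 0.712 (adjusted *p* = 0.0135) and r = 0.612 (adjusted *p* = 0.0985) without the 2 mice. Group means are removed here, so the genotype difference that chose the set does not enter. *Mapk11* had r = 0.62 (permutation *p* = 0.0199, adjusted *p* = 0.0477) and rho = 0.569 (adjusted *p* = 0.0555), and its r dropped to 0.338 (adjusted *p* = 0.274) without the 2 mice and was 0.85 in Egr1wt and 0.245 in Egr1f mice, so the relation rests on those mice. *Dusp6* had r = 0.589 (permutation *p* = 0.0212, adjusted *p* = 0.0477), rho = 0.503 (adjusted *p* = 0.107) and r = 0.54 (adjusted *p* = 0.206) without the 2 mice, so for *Mapk12* and *Dusp6* too the call rests on them. *Spry2* (r = 0.452), *Dusp5* (0.33), *Spry4* (−0.18), *Mapk14* (−0.29) and *Dusp4* (−0.49) did not pass, with adjusted *p* between 0.171 and 0.548. The activity-induced genes themselves were not called in Egr1cKO mice, the smallest *p* being that of *Fosb* (log2FC 0.25, adjusted *p* = 0.645).

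**Figure D4:**
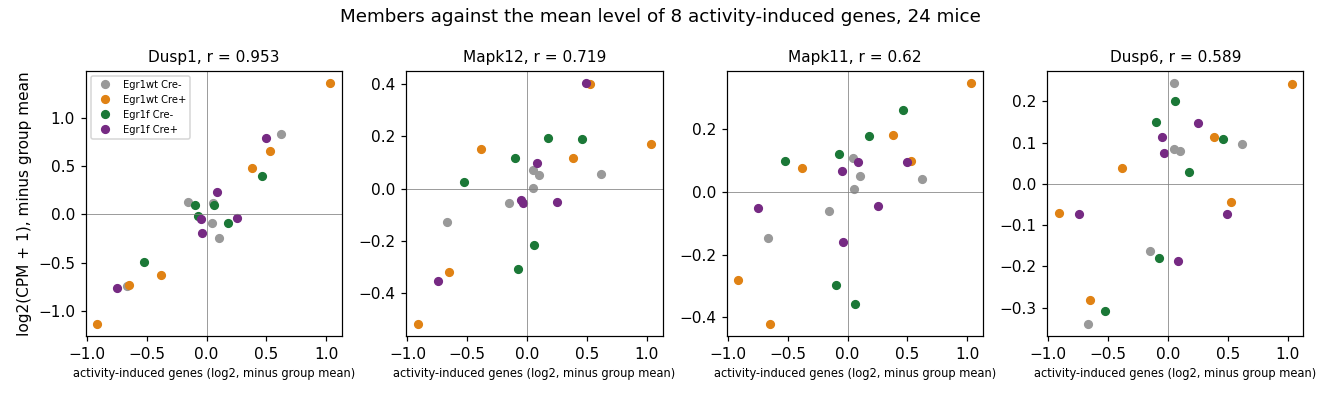
log2(CPM + 1) of *Dusp1*, *Mapk12*, *Mapk11* and *Dusp6* (y axes) against the mean log2 level of 8 activity-induced genes (x axes), each minus its group mean, 1 point per mouse (n = 24) and colors for genotypes. *Dusp1* lies along a line (r = 0.953), and in the *Mapk11* panel the most extreme points on the x axis are Cre controls.

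Against the mean of 7 glucocorticoid-responsive genes (*Fkbp5*, *Tsc22d3*, *Sgk1*, *Per1*, *Zbtb16*, *Cdkn1a* and *Pdk4*) *Spry2* was the one member past the threshold, with r = −0.583 (permutation *p* = 0.00491, adjusted *p* = 0.0442) and rho = −0.619 (adjusted *p* = 0.0457). Its r was −0.508 without the 2 mice farthest from the median, where the adjusted *p* was 0.226 so that the call rests on them, and −0.712 and −0.461 in Egr1wt and Egr1f mice. *Dusp1*, which glucocorticoids can induce, had r = −0.167 (adjusted *p* = 0.624). The other 7 had adjusted *p* between 0.108 and 0.959. Among the 36 pairs of members, a family added after the data were seen, none passed adjustment. *Mapk11* with *Mapk12* gave r = 0.613 (permutation *p* = 0.0145, adjusted *p* = 0.261), *Mapk12* with *Dusp1* 0.687 (adjusted *p* = 0.261) and *Dusp1* with *Dusp4* −0.63 (adjusted *p* = 0.293).

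The genes whose level was most like that of *Mapk11* over the 24 mice, by Pearson's r on log2(CPM + 1), were *Josd2* (0.853), *Wdr90* (0.824), *Tbc1d17* (0.817), *Hexdc* (0.811) and *Il11ra1* (0.806). Over the 18 mice other than Egr1cKO they were *Ckb* (0.90), *Pcbp4* (0.886), *Crip2* (0.881), *Nr1h2* (0.876) and *Hsf4* (0.872), none of them on the first list. *Mapk12* was at rank 346 (r = 0.665) over 24 mice and 1436 (0.536) over 18 by likeness, and *Dennd6b* at 214 (0.693) and 1122 (0.567). *Egr1* itself was at 0.619 over 24 mice and 0.18 over the 18. These are descriptions over mice that share genotypes. The part of library preparation and of base composition in these values was not tested.

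The *Mapk11* transcript had 56.1% GC, above 84.2% of the tested genes, whose median was 49.1%. The 5 genes most like it in the 18 mice had 60.6% to 61.7%, and those in the 24 mice 51.6% to 58%. A slope of log2 levels on transcript GC was therefore computed for each library, in log2 units per 10 points of GC. It ran from −0.0637 to 0.0209 in wild-type mice (median −0.0244), from −0.0597 to 0.0372 in Cre controls (0.00302), from −0.0193 to 0.0843 in floxed controls (0.0537) and from −0.0554 to 0.0536 in Egr1cKO mice (−0.0243). Over 24 mice *Mapk11* correlated with it at r = 0.552, *Mapk12* at 0.476, *Hdac10* at 0.535 and *Dennd6b* at 0.556, and *Mapk14* at 0.00567.

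With this slope as a covariate, a fit added after the data were seen, the *Mapk11* log2FC was −0.40 against floxed controls in place of −0.57, and floxed controls were above wild-type mice by 0.08 in place of 0.32. It was −0.55 in place of −0.57 against Cre controls, −0.42 in place of −0.47 against the mean of the others, and the combined term was −0.63 in place of −0.89. Against floxed controls *Mapk12* went to −0.25, *Hdac10* to −0.30, *Dennd6b* to −0.10 and *Dusp6* to 0.20, and against Cre controls *Mapk12* was at −0.25, *Hdac10* at −0.34 and *Dennd6b* at −0.33. The number of genes with an unadjusted *p* under 0.05 between Egr1cKO mice and floxed controls was 1117 in place of 3047, and 4 were called in place of 6. Against Cre controls 3546 in place of 3026 and against the mean of the others 2899 in place of 2938 were under 0.05. The slope was computed from the same levels and differed between genotypes. This fit therefore cannot tell base composition apart from a genotype difference, and the part of base composition in the level of *Mapk11* was not tested.

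**Figure D5:**
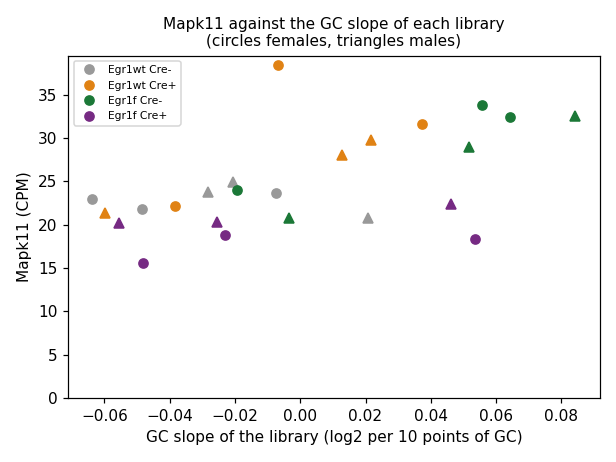
*Mapk11* level in CPM (y axis, from 0) against the GC slope of each library (x axis, log2 per 10 points of GC), 1 point per mouse (n = 24), females as circles, males as triangles and colors for genotypes. Floxed controls have the highest median slope (0.0537), and the Egr1cKO mice, spread from −0.0554 to 0.0536, lie between 15.5 and 22.4 CPM.

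Cell type markers were read beside these values, and *Aqp4* was the one marker called. Of 5 astrocyte markers all were above 0 in Egr1cKO mice against floxed controls, with *Aqp4* at a log2FC of 0.82 (adjusted *p* = 0.000523). Their sum was 3241, 4684 and 4772 CPM (lowest, median, highest) against 3039, 3466 and 4521 CPM. All 5 oligodendrocyte markers were below 0, with sums of 2851, 3728 and 4047 CPM against 3482, 4420 and 5065 CPM, *Mbp* at −0.41 (adjusted *p* = 0.222) and none called. Microglia markers summed to 205 to 239 against 170 to 208 CPM (4 of 5 above 0, none called), oligodendrocyte precursor markers to 85.4 to 107 against 71.0 to 98.8 CPM, endothelial markers to 96.7 to 115 against 74.8 to 103 CPM, fibroblast markers to 36.0 to 85.5 against 42.3 to 56.7 CPM and subfield markers to 659 to 1319 against 932 to 1142 CPM. All 4 blood markers were below 0 (sums 28.4 to 64.9 against 31.4 to 93.9 CPM), and 6 neuronal markers summed to 5140 to 5619 against 4984 to 5634 CPM. In whole tissue, fewer cells of a type and less RNA per cell cannot be told apart, and the part of these shifts in the p38 and feedback gene values was not tested.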

How the data were processed

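RNA was extracted with the RNeasy kit, polyA libraries were not stranded, and paired-end reads came from a NovaSeq instrument. The tools named by the paper and by the submitters' processing notes differ in version, the notes giving Trim Galore 3.8.2 and STAR 2.7.9 with GRCm38. The authors deposited whole-number read counts per gene and mouse, without normalization, for 36605 Ensembl genes, of which 36493 had a symbol in GENCODE M21 (GRCm38). Groups came from the sample labels. Replicate numbers do not mark shared litters or days in the labels.

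Levels are CPM with TMM scaling. Differences were tested with edgeR 4.0.16 (R 4.3.3), with the filter on a minimum count of 10, 1 quasi-likelihood fit of the 24 mice over genotype and sex, and Benjamini-Hochberg adjustment over 19742 genes. Calls needed an adjusted *p* of at most 0.05 and, except for interaction terms, a fold change of at least 1.2. Standard errors were computed as |log2FC| divided by √F. Intervals are at 95%. Correlations used 100000 permutations within the 8 groups and a pseudocount of 1. Alternatives were DESeq2 1.42.0, its size factors, no filter, no fold change minimum, the replicate number as a block, models without sex or on the 12 mice compared, a pseudocount of 0.1, and each mouse left out in turn. Base composition came from the longest GENCODE transcript of 99.83% of the tested genes. The script was tested on simulated data. A search for duplicate libraries found none.

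The named genes are all 9 members, *Egr1*, the genes within 50 kb of *Mapk11*, the 3 list genes with the smallest *p* against floxed controls, called list genes, and the 5 genes most like *Mapk11*. The members and the lists were chosen with earlier results of these data known.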

Additional observations from a re-analysis of the deposited data

Results flagged for a closer look

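In 40 groups of 6 mice searched for a value far from the others, of which chance picks about 1 in 20, 2 such values were found. *Mapk12* in Egr1cKO mice had 1 male (replicate 3) at 6.64 CPM, above the other 5. *Mapk14* in wild-type mice had 1 male (replicate 2) at 123.8 CPM. The Cre difference of *Egr1* differed between Egr1f and Egr1wt mice, with an adjusted *p* of 1.04e-06 from edgeR for the interaction. For *Dusp6* every Egr1cKO mouse was above the mean of the floxed controls of its sex, by 9.13 CPM on average, and every Cre control was below the wild-type mean of its sex. The Egr1cKO males at 58.15 and 58.2 CPM were barely above their control mean of 58.13 CPM. The log2FC against floxed controls was 0.35 in females and 0.08 in males. The share of all genes with this pattern was not counted. The edgeR interaction for *Dusp6* had an adjusted *p* of 0.159.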

How the results depend on the processing

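In the comparisons with Egr1cKO mice and of the single alleles with wild-type mice, the counts of called members cover the 8 genes other than *Mapk11*. It is described there without a test. With edgeR the count was 0 in each comparison. Without the filter on low counts, 2 members were called for the combined term of both alleles (*Dusp6* with an adjusted *p* of 0.00393 and *Dusp4* with 0.0314), in a fit that called 1173 genes in place of 1. DESeq2 gave no adjusted *p* for most members in that term, so no count is given for it. Of the 9 correlations with activity-induced genes, 4 passed, and 2 did with DESeq2's size factors, 1 without the 2 mice farthest from the median, and 0 in the Egr1wt or the Egr1f mice alone. Of the glucocorticoid correlations 1 passed, and 0 without the 2 mice, 2 in the Egr1wt mice (*Spry2* and *Spry4*) and 0 in the Egr1f mice. Fewer mice enter these fits. With DESeq2 in place of edgeR the called genes numbered 50 in place of 6 against floxed controls, 35 in place of 1 against Cre controls and 52 in place of 6 against the mean of the others, and without the filter they numbered 803, 794 and 618. With 6 mice against 18 and no sex term, 1 gene was called in place of 6. Without the filter, 175 and 82 genes in place of 0 were called for Cre controls and floxed controls against wild-type mice, 79 in place of 13 for sex and 61 in place of 0 for the sex difference in floxed mice, and with DESeq2 8, 5, 16 and 3. Single mice decided the number of genes called: it was 982 in place of 1 against Cre controls and 1455 in place of 1 for the combined term without male Cre control 2, and 253 in place of 6 against the mean of the others without male Egr1cKO mouse 3. Against floxed controls it ran from 3 to 25 with single mice left out, the highest without male floxed control 1. None of the members counted was called in the fits with single mice left out. Against floxed controls, values of members not called changed sign in females alone (*Dusp5* 0.22), in males alone (*Mapk14* −0.02, *Dusp1* −0.26, *Dusp4* −0.06) and with wild-type mice as the reference (*Mapk14* −0.03, *Dusp1* −0.22, *Dusp4* −0.07, *Dusp5* 0.04, *Dusp6* −0.02). *Dusp1* changed sign in further comparisons when single mice were left out, among them 0.29 in place of −0.16 against Cre controls. For floxed controls against wild-type mice *Mapk12* was −0.10 in place of 0.13 with the GC slope as a covariate.

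The replicate numbers were not taken as pairs. Deviations of same-numbered mice had a median correlation of −0.0153 over 84 pairs, against 0.0043 for 168 pairs with different numbers. With the replicate number as a block, 0 of the members counted were called, the *Mapk12* log2FC against floxed controls was −0.42, and 6 genes were called against floxed controls as without the block, and 4 in place of 6 against the mean of the others.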
